A study of Mus musculus with 4 samples.

Results

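Pth, Chga, Bpifa1 and Glycam1 are genes of other tissues, and Eps8l1 encodes an adaptor protein. Their transcripts were measured in thymus from wild-type and Camk2g knockout mice given vehicle or N-methyl-N-nitrosourea (MNU). The genes were chosen by name from a list of 7 symbols. Gcm2 and Casr, the parathyroid transcription factor and the calcium-sensing receptor on that list, were not analysed here, which left 5 genes of 10598 in the table. The choice was made because their levels in these libraries followed neither genotype nor MNU alone. The levels below are therefore a description, with no test. All mice were C57BL/6J, and the knockout lacked CAMKIIgamma (CAMKIIgamma-/-), a subunit of a calcium-dependent kinase. MNU, an alkylating agent that induces T-cell lymphoma, was injected intraperitoneally a single time, with 75 mg/kg given to mice aged 4 to 5 weeks. The labels give 6 months as the treatment time for MNU and for vehicle. The 4 groups, called vehicle wild type, MNU wild type, vehicle knockout and MNU knockout here, had 1 library each, so no difference has a replicate check. The labels do not say how many animals a library holds or in which of the thymuses tumours were seen.

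Of the 5 genes, Pth, Chga, Bpifa1 and Glycam1 are known from particular cells of other tissues, and Eps8l1 is given no cell type here. Pth encodes parathyroid hormone, which raises blood calcium and is made by the chief cells of the parathyroid glands, small organs that share an embryonic pouch with the thymus and can lie close to it. Chga encodes chromogranin A, a protein of hormone granules in neuroendocrine cells, parathyroid cells included. Bpifa1 encodes a secreted protein of the airway and nasal lining with antimicrobial and surface-active properties. Eps8l1 encodes an adaptor of the EPS8 family, which links receptor signalling to actin. Glycam1 encodes a mucin-like ligand of L-selectin on the high endothelium of lymph nodes, also made in the mammary gland. Thymic medullary epithelium is itself known to transcribe many genes of other tissues, through AIRE and through rare epithelial cells that resemble neuroendocrine, secretory, ciliated, tuft or microfold cells. A whole-thymus library can also hold parathyroid tissue or a neighbouring lymph node, and in such bulk libraries fewer cells of a type and less RNA per cell cannot be told apart.

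The stretches just before the transcription start are shown for Pth, Chga and Bpifa1, which were high and low in the same libraries, and for Glycam1, which followed another pattern. Eps8l1, with several annotated starts, is left out. The stretches hold the 100 bases upstream of the annotated start on the gene's own strand, from RefSeq on GRCm38.p6, with matches to TATAAA or TGACGT, on either strand, in capitals.
Pth (chr7:113388574-113388673, minus strand): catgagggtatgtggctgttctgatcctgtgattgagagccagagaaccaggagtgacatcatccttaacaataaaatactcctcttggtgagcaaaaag
Chga (chr12:102554841-102554940, plus strand): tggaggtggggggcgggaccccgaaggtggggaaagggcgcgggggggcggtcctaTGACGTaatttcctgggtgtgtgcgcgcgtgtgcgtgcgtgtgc
Bpifa1 (chr2:154142780-154142879, plus strand): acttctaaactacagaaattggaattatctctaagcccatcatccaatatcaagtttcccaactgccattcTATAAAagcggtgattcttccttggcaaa
Glycam1 (chr15:103565082-103565181, minus strand): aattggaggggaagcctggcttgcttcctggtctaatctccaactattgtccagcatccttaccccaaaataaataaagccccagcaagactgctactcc

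All 5 genes matched the promoter table, Eps8l1 with 3 annotated starts. TATAAA was found 29 bases before the start of Bpifa1, and 5.56% of all 32851 annotated windows of this length hold it. TGACGT, the core of the cyclic AMP response element, was found 44 bases before the start of Chga and is in 4.09% of all windows. The other 3 genes had no match to either motif in these windows, which included all 3 starts of Eps8l1. Base composition was also unlike, with 70% G or C in the Chga window, 48% for Glycam1, 44% for Pth and 37% for Bpifa1. The windows of Pth, Chga and Bpifa1 thus had neither motif in common.

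Facts that touch every value come first. Camk2g, the deleted gene, stood at 2749 and 3173 normalised counts in wild type with vehicle and with MNU, and at 489 and 29.7 in knockout with vehicle and with MNU. In vehicle knockout Camk2g was thus at 17.8% of its vehicle wild-type level. In the same library, 42 genes with over 1000 normalised counts in MNU wild type, more than 20-fold above both vehicle wild type and MNU knockout, stood at a median of 15.4% of their wild-type MNU level. Whether the Camk2g signal of vehicle knockout has the same source as this share was not tested. Thymocyte markers were present in all 4 libraries, and the 14 listed summed to 437934 normalised counts in vehicle wild type, 204249 in MNU wild type, 309618 in vehicle knockout and 383903 in MNU knockout. With MNU in wild type 6 of the 14 were at least 2-fold lower and 1 higher. Most thymic epithelial genes were also lower in MNU wild type, where Foxn1, the master regulator of that lineage, was listed at 0, against 569 to 821 in the other libraries.

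Pth was present in vehicle wild type and in MNU knockout and nearly absent from the other 2 libraries. It stood at 257 normalised counts in vehicle wild type, was listed at 0 in MNU wild type, and stood at 2.22 in vehicle knockout and at 804 in MNU knockout. The vehicle libraries thus lay on opposite sides, and so did the MNU libraries. On the log2(value + 10) scale, on which all log2 differences here are given, Pth was 4.74 lower with MNU in wild type and 6.06 higher with MNU in knockout. The second was the largest increase of all 10587 genes with a mean of at least 10 at this pseudocount, but with a pseudocount of 40 it was 4.32, below the 4.72 of Bpifa1. Pth was also the gene with the largest deficit in vehicle knockout against vehicle wild type, with a log2 difference of -4.45.

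Chga followed the same order as Pth, with a small remaining signal in the low libraries. It stood at 337 normalised counts in vehicle wild type, 8.25 in MNU wild type, 45.8 in vehicle knockout and 1262 in MNU knockout. It was 40.9-fold lower with MNU in wild type and 27.6-fold higher with MNU in knockout. With vehicle the knockout was 7.36-fold below wild type.

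Bpifa1 was, of the 8 airway genes analysed, the one that stood furthest above the other 3 libraries in MNU knockout. It stood at 226 normalised counts in vehicle wild type, was listed at 0 in MNU wild type, and stood at 80.8 in vehicle knockout and 3141 in MNU knockout. The last value was 38.9-fold above vehicle knockout and 13.9-fold above vehicle wild type. Unlike Pth, Bpifa1 was plainly present in vehicle knockout, at 35.8% of vehicle wild type, where Pth was at 0.86% of it.

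Eps8l1 was detected in every library and had the smallest range of the 5 on the log2 scale. Its normalised counts were 1329 in vehicle wild type, 223 in MNU wild type, 344 in vehicle knockout and 1571 in MNU knockout. The high pair differed by 1.18-fold and the low pair stood well below it, with 5.96-fold less in MNU wild type than in vehicle wild type and 4.56-fold more in MNU knockout than in vehicle knockout.

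Glycam1 was high in MNU knockout alone. It stood at 10.9 normalised counts in vehicle wild type, 39.9 in MNU wild type, 6.47 in vehicle knockout and 530.0 in MNU knockout. That library was 81.8-fold above vehicle knockout, 48.6-fold above vehicle wild type and 13.3-fold above MNU wild type. Of the 5 genes it was the only one higher with MNU in wild type, with a log2 difference of 1.25, which rested on values under 40 counts and became 0.65 with a pseudocount of 40.

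**Figure D1:**
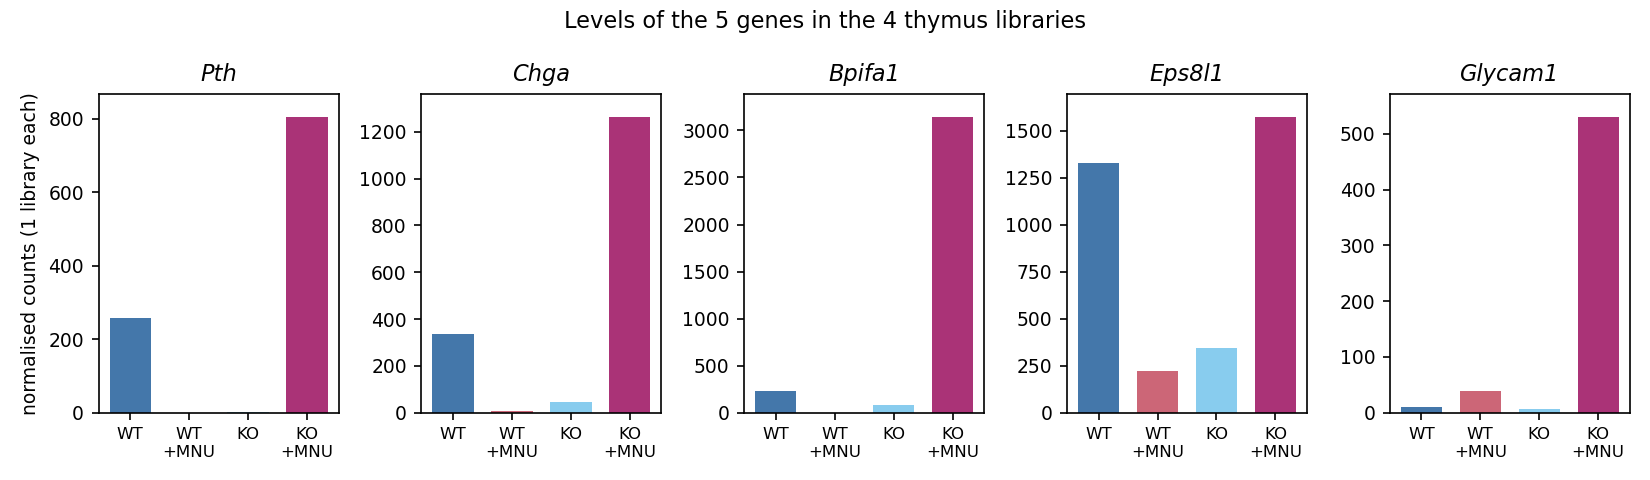
Normalised counts of Pth, Chga, Bpifa1, Eps8l1 and Glycam1 (vertical axes, each from 0 and with its own scale) in wild type (WT) and knockout (KO) with and without MNU, 1 library per bar. The first 4 genes have their highest bar in MNU knockout and their second highest in vehicle wild type, and Glycam1 reaches 530.0 in MNU knockout and at most 39.9 elsewhere.

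Counted over the 5 genes, MNU went with lower levels in wild type and with higher levels in knockout. In wild type 4 of the 5 were at least 2-fold lower, where 14.2% of all genes were, and 1 was at least 2-fold higher, where 7.14% were. In knockout 5 of 5 were at least 2-fold higher with MNU, where 0.331% of genes were (35 of 10587), and 0 of 5 were lower, where 2.95% were. They held positions 1, 2, 3, 4 and 7 in the order of all genes by increase, for Pth, Bpifa1, Glycam1, Chga and Eps8l1. Among the first 4 the order depended on the pseudocount, and with 40 the log2 differences were 4.72 for Bpifa1, 4.32 for Pth, 3.92 for Chga and 3.62 for Glycam1. The genes were chosen with these contrasts in view, so the shares are given as background and nothing is read from them. Over all genes the median log2 difference was -0.01 in wild type and 0.01 in knockout.

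By genotype the direction depended on MNU. Without MNU, 4 of the 5 were at least 2-fold lower in knockout than in wild type, where 0.359% of genes were, and 0 were at least 2-fold higher, where 2.59% were. Glycam1 differed by -0.34 on the log2 scale. With MNU, 5 of 5 were at least 2-fold higher in knockout, where 15.0% of genes were, and 0 were lower, where 7.37% were. Log2 differences between the MNU libraries were 6.35 for Pth, 6.12 for Chga, 8.30 for Bpifa1, 2.76 for Eps8l1 and 3.44 for Glycam1. These comparisons share libraries with the MNU comparisons and are not separate evidence.

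The difference between the MNU changes, knockout minus wild type, was 10.80 for Pth on the log2 scale, 9.68 for Bpifa1, 8.76 for Chga, 4.68 for Eps8l1 and 3.78 for Glycam1. All 5 passed 2 on that scale, where 6.62% of genes did, and 0 passed -2, where 3.64% did. The choice of genes favoured such differences, so nothing is read from these shares. That of Pth was the largest of all genes at this pseudocount. Because Pth stood at 0 and 2.22 in its low libraries, its value depended on the pseudocount, and with 40 it was 7.21 for Pth and 7.45 for Bpifa1.

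**Figure D2:**
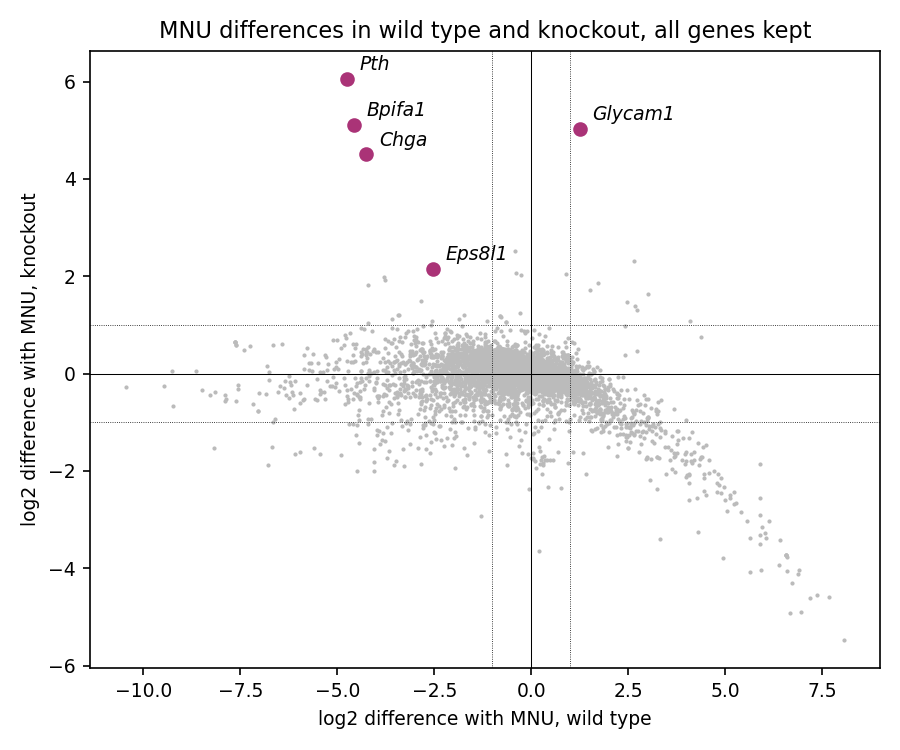
Log2 difference with MNU in wild type (horizontal) and in knockout (vertical) for the 10587 genes kept (grey) and the 5 genes (purple), on log2(value + 10), with dotted lines at 2-fold. Pth, Bpifa1, Chga and Eps8l1 lie in the upper left, lower with MNU in wild type and higher with MNU in knockout, and Glycam1 lies in the upper right.

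The pattern of high vehicle wild type and high MNU knockout was rare in the table. In 6 genes, 0.0567% of those kept, both of these libraries were at least 2-fold above both others, and 4 of the 6 were Pth, Chga, Bpifa1 and Eps8l1. The other 2 were Vmn2r96, a vomeronasal receptor gene, and Sfi1, which encodes a centrosomal protein. Vmn2r96 stood at 550.4 normalised counts in vehicle wild type, 20.3 in MNU wild type, 186 in vehicle knockout and 679 in MNU knockout. Sfi1 stood at 6200 and 862 in wild type with vehicle and with MNU, and at 2546 and 7146 in knockout with vehicle and with MNU. At a 4-fold gap 2 genes (0.0189%) met the pattern, Pth with a log2 gap of 4.45 and Chga with 2.64. A less strict pattern, at least 2-fold lower with MNU in wild type and at least 2-fold higher in knockout, was met by 16 genes (0.151%), the same 4 genes among them. The MNU knockout was at least 2-fold above all 3 other libraries in 18 genes (0.17%), which included Pth, Chga, Bpifa1 and Glycam1. Pth, Chga, Bpifa1, Eps8l1 and Glycam1 were chosen for levels that followed neither genotype nor MNU alone. Their presence among the genes meeting these patterns follows in part from that choice, and nothing is read from it.

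The 4 genes that shared this order did not keep fixed proportions. Ratios of normalised counts between genes are not corrected for transcript length, so only their change between libraries is read. Chga over Pth was 1.31 in vehicle wild type and 1.57 in MNU knockout. Bpifa1 over Pth was 0.88 and 3.91 in the same libraries, and Eps8l1 over Pth was 5.17 and 1.95. Between these 2 libraries the ratio of Chga to Pth thus changed least of the 3, while Bpifa1 was higher and Eps8l1 lower relative to Pth in MNU knockout. The distance between 2 genes' log2 profiles over the 4 libraries, each centred on its mean, was smallest for Pth and Chga, at 1.39, and largest for Bpifa1 and Glycam1, at 4.54.

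Among other parathyroid genes, the transcription factor Gata3 differed by less than 2-fold between the knockout libraries, unlike Pth. Of the 12 listed genes 5 were analysed, and 2 of these, Pth and Chga, were at least 2-fold higher with MNU in knockout. Gata3, needed for parathyroid and for T cell development, stood at 2910 and 1305 normalised counts in wild type with vehicle and with MNU, and at 2104 and 2718 in knockout with vehicle and with MNU. Thymocytes express Gata3 too. In the calcium hormone list 6 of 18 genes were analysed, among them the G protein subunits Gnaq and Gna11 through which the calcium receptor signals. None of the 6 differed 2-fold with MNU in knockout (median -0.14), and Gnaq and the nuclear receptor Rxra were at least 2-fold lower with MNU in wild type.

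The neuroendocrine label rested on Chga, since 2 of 26 listed neuroendocrine genes were analysed. The other was Ddc, the decarboxylase of dopamine and serotonin synthesis, which ran the opposite way. Ddc stood at 39.7 normalised counts in vehicle wild type, 1055 in MNU wild type, 250 in vehicle knockout and 80.7 in MNU knockout. Its highest library was thus the one where Chga was lowest. The vehicle knockout value of Ddc is given without subtraction of the 15.4% share of the MNU wild-type level, on which its knockout difference depends. Of 15 listed thyroid and C cell genes 1 was analysed, the calcitonin-family gene Calcb, at 131, 0.82, 168 and 171 in the same order. Calcb was present in vehicle knockout, where Pth stood at 2.22.

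Most airway secretory genes analysed were low in MNU wild type like Bpifa1, and few followed the rest of its pattern. Of 28 listed, 8 were analysed. With MNU in wild type 5 of the 8 were at least 2-fold lower (median -3.99). With MNU in knockout 2 were higher and 1 lower (median 0.18). Reg3g, an antimicrobial lectin of gut and airway, came nearest, at 296 normalised counts in vehicle wild type, 12.0 in MNU wild type, 255 in vehicle knockout and 1041 in MNU knockout. Wfdc2, a secreted protein of airway and genital epithelium, was listed at 0 in MNU wild type and stood at 188, 541 and 1026 in vehicle wild type, vehicle knockout and MNU knockout. Cyp2f2, a cytochrome P450 of club cells, was set apart by genotype, at 111 and 97.5 in wild type and 594 and 722 in knockout with vehicle and with MNU. Msln, the mesothelial surface protein mesothelin, split the same way, at 353 and 428 in wild type and 1126 and 1186 in knockout. Aldh1a1, a retinaldehyde dehydrogenase, was the 1 lower gene, at 332 and 136 in knockout with vehicle and with MNU. Of 19 ciliated cell genes 5 were analysed, and 0 of them were at least 2-fold higher with MNU in knockout.

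Within the EPS8 family, Eps8l1 and its paralog Eps8l2 parted in the knockout. Eps8l2 stood at 471 normalised counts in vehicle wild type, 9.18 in MNU wild type, 652 in vehicle knockout and 519 in MNU knockout. Both genes were low in MNU wild type, whereas in vehicle knockout Eps8l1 was low and Eps8l2 was at its highest. The signalling partners Abi1, Sos1, Rac1 and Baiap2 were within 2-fold in both MNU comparisons. Squamous epithelial genes did not follow Eps8l1 either. Of 12 analysed, 10 were lower with MNU in wild type (median -3.19), and in knockout 0 were higher and 2 lower (median -0.51), or 4 lower with the MNU wild-type share subtracted from vehicle knockout. Sprr2a1, a cornified envelope protein, stood at 5221 and 29.6 in wild type with vehicle and with MNU and at 8505 and 5012 in knockout with vehicle and with MNU.

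With MNU in knockout no lymph node gene analysed was 2-fold higher except Glycam1. Of 25 listed, 12 were analysed, and 1 of them, Glycam1, was at least 2-fold higher and 2 were lower (median 0.43), or 0 lower with that share subtracted. The chemokine Ccl21a, which draws T cells into lymph nodes and is also made in thymic medulla, stood at 25002 and 119 normalised counts in wild type with vehicle and with MNU and at 23988 and 36075 in knockout. Its near-identical copies Ccl21b and Ccl21c cannot be told apart from it with certainty. Fcer2a, a B cell and follicular dendritic cell receptor, stood at 331 and 473 in knockout with vehicle and with MNU. Cxcl13, the chemokine of B cell follicles, was highest in MNU wild type, at 2732, and stood at 626 and 268 in knockout with vehicle and with MNU. Lyve1, a lymphatic endothelial receptor, was likewise lower with MNU in knockout, at 245 and 97.1.

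B cell markers were at their highest summed level in the library where Pth, Chga, Bpifa1, Eps8l1 and Glycam1 were all highest. The 9 genes analysed summed to 3897 normalised counts in vehicle wild type, 2837 in MNU wild type, 6296 in vehicle knockout and 10461 in MNU knockout, and none was listed at 0. With MNU in knockout 1 of the 9, the IgM receptor gene Faim3, was at least 2-fold higher (median 0.82), and 0 were with the MNU wild-type share subtracted from vehicle knockout. The vehicle knockout sum, above that of vehicle wild type, is given without subtraction of the MNU wild-type share. Pth, Chga, Bpifa1 and Eps8l1 were lower in vehicle knockout than in vehicle wild type. The part of B cells in the levels of the 5 genes was not tested.

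Most thymic epithelial genes were lower with MNU in wild type, as Pth, Chga, Bpifa1 and Eps8l1 were, and none of the medullary or cortical genes differed 2-fold with MNU in knockout. Of 13 medullary epithelial genes 8 were at least 2-fold lower and 1 higher with MNU in wild type (median -3.95), and in knockout 0 were higher and 0 lower (median -0.20). Aire, which drives promiscuous transcription in medullary epithelium, stood at 797 and 29.6 normalised counts in wild type with vehicle and with MNU, and at 695 and 984 in knockout with vehicle and with MNU. Fezf2, which acts beside it, was listed at 0 in MNU wild type and stood at 521, 478 and 506 in vehicle wild type, vehicle knockout and MNU knockout. Aire and Fezf2 differed by less than 2-fold between vehicle knockout and vehicle wild type, where Pth stood at 2.22 and 257. The part of medullary epithelium in the Pth level was not tested. The 15 cortical genes were all lower with MNU in wild type (median -6.38), and none differed 2-fold in knockout (median -0.34). The medullary genes summed to 31319 normalised counts in vehicle wild type and 24442 in MNU wild type, where Ly6d, a surface protein that thymocyte and B cell precursors also express, made up 17361 of the sum. The cortical sum ran from 11990 in MNU wild type to 146436 in vehicle wild type.

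Other genes typical of distant tissues or of rare thymic epithelial cells followed yet other orders. In the tuft and microfold list 5 genes were analysed, and 3 were at least 2-fold lower and 1 higher with MNU in wild type. In knockout 1, Gp2, was higher and 1, Ccl9, was lower. Gp2, a receptor of microfold cells, stood at 152 normalised counts in vehicle wild type, 1.75 in MNU wild type, 195 in vehicle knockout and 773 in MNU knockout. Ccl9 ran the other way, at 339, 3482, 872 and 349 in the same order. Of 4 salivary and milk genes analysed, 3 were at least 2-fold lower with MNU in wild type and 1, Lcn2, was higher. In knockout 0 were higher and 1, Amy1, was lower. Csn2, the milk protein beta-casein, was listed at 0 in MNU wild type and stood at 480.0, 469 and 626 in the other 3 libraries in the same order. Lpo, the lactoperoxidase of milk and airway secretions, stood at 361, 0.82, 511 and 484. Mup1, a major urinary protein of liver with near-identical copies, stood at 14.9, 15.7, 384 and 107. Of Gp2, Csn2, Lpo and Mup1, Gp2 alone was at least 2-fold higher in MNU knockout than in every other library.

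**Figure D3:**
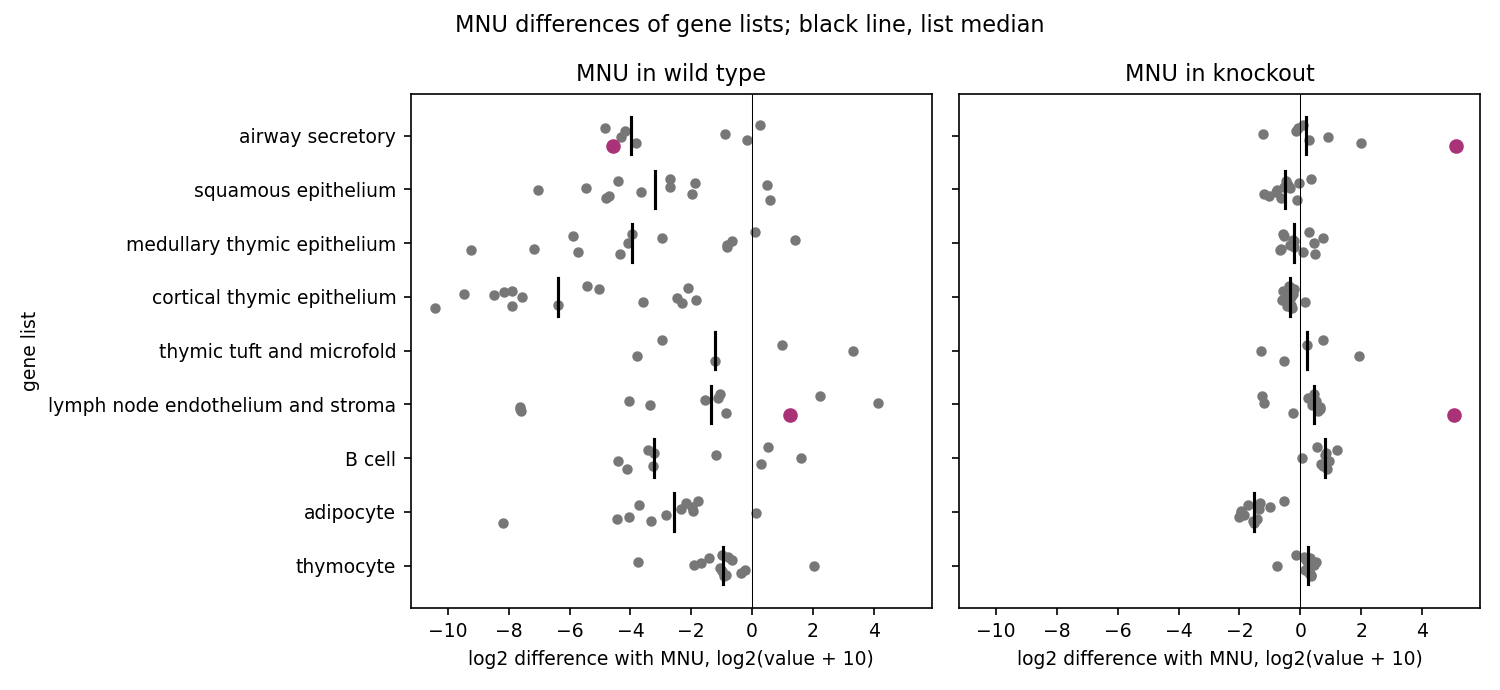
Log2 difference with MNU, on log2(value + 10), in wild type (left) and knockout (right) for the analysed genes of 9 lists, 1 point per gene and a black line at the list's median; purple points are Bpifa1 in the airway list and Glycam1 in the lymph node list. In knockout both purple points lie above 5 while the list medians lie between -1.53 and 0.82.

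Adipocyte transcripts ran against the 5 genes in the knockout. Of 12 adipocyte genes 11 were at least 2-fold lower with MNU in knockout (median -1.53), with summed levels of 106779 normalised counts without and 37031 with MNU. In MNU wild type they summed to 19706, and Lep, the hormone leptin, was listed at 0. Without MNU, wild type held about as much as knockout, at 110200. The part of surrounding tissue in the levels of the 5 genes was not tested.

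The genes most like each of the 5 over the 4 libraries were named by the smallest distance between centred log2 profiles. For Pth they were Chga (1.39), Bpifa1 (2.60), Vmn2r96 (3.07), Eps8l1 (3.21) and Reg3g (3.43). For Chga they were Pth (1.39), Bpifa1 (1.78), Vmn2r96 (1.92), Reg3g (2.04) and Gp2 (2.36). For Bpifa1 they were Chga (1.78), Gp2 (2.33), Reg3g (2.41), Pth (2.60) and Faim3 (2.96). Eps8l1 had closer company, with Sfi1 at 0.69, the T cell receptor modulator gene Cd5 at 1.06, the EGR corepressor gene Nab2 at 1.11, Tctex1d1 at 1.19 and Clca2 at 1.19. Cd5 stood at 7081 and 1476 normalised counts in wild type with vehicle and with MNU and at 4090 and 6793 in knockout. Its 2 highest libraries were the same as for Eps8l1. Vehicle knockout was less than 2-fold below them for Cd5, which thus did not meet the 2-fold pattern. Nearest to Glycam1 were the granule genes Camp (2.21) and Ngp (2.51) of neutrophils and the X-linked Xlr3a (2.29), Xlr3b (2.61) and Xlr3c (2.62), which are near-identical copies and uncertain individually. Ngp stood at 48.6 and 355 in wild type with vehicle and with MNU and at 69.1 and 384 in knockout, and Xlr3a at 103, 74.3, 57.4 and 376 in the same order. Reg3g was among the 5 nearest of 3 of the genes, and Gp2 and Vmn2r96 of 2 each. The part of neutrophils in the Glycam1 level was not tested.

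**Figure D4:**
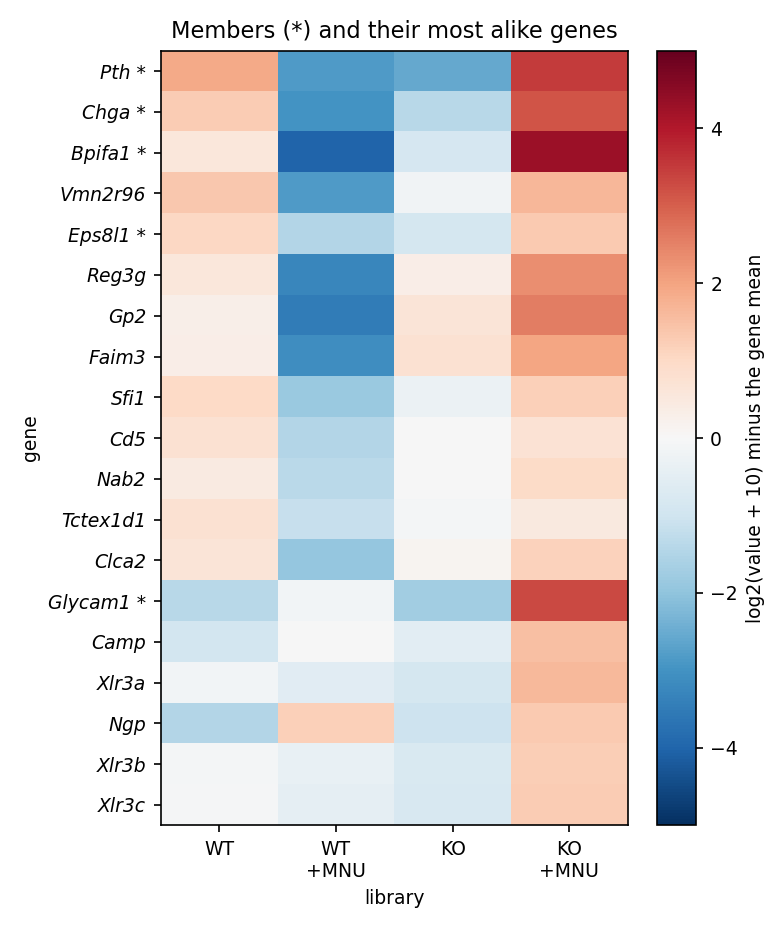
Centred log2(value + 10) of the 5 genes (asterisks) and of the genes most like each (rows) in the 4 libraries (columns), red above and blue below the gene's own mean. Pth, Chga, Bpifa1 and Eps8l1 are red in vehicle wild type and MNU knockout, and Glycam1 is red in MNU knockout alone.

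The vehicle knockout values were also computed with 15.4% of the MNU wild-type level subtracted. That share came to 0 normalised counts for Pth and Bpifa1, 1.27 against 45.8 for Chga, 34.3 against 344 for Eps8l1 and 6.13 against 6.47 for Glycam1. After subtraction and rescaling the library held 2.62 of Pth, 52.6 of Chga, 95.5 of Bpifa1, 366 of Eps8l1 and 0.41 of Glycam1. Pth, Chga, Bpifa1 and Eps8l1 were still at least 2-fold below vehicle wild type. Glycam1 then was too, but at 0.41 against 10.9 normalised counts, levels that rest on few reads. The share of all genes so called after subtraction is not given here. With vehicle wild type as the control in place of this library, MNU knockout was higher by log2 differences of 1.61 for Pth, 1.87 for Chga, 3.74 for Bpifa1 and 4.69 for Glycam1, and Eps8l1, at 0.24, was no longer 2-fold different. At least 2-fold higher in that comparison were 4 of the 5 genes, where 1.57% of all genes were.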

How the data were processed

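RNA sequencing of thymus gave 1 library per group. TopHat2 2.0.8b, edgeR and mm9 are named without role, per the submitters' processing notes, but the sources used here do not give how genes were counted, annotated and filtered. The authors deposited a signal per gene, named normalised counts, with library totals from 32911362 to 34836257. Low values fell near multiples of 0.93 to 1.06 units with offsets, so that whole reads were not recovered, no count model was used and no counting intervals were given. Groups came from the labels. With Python 3.11.15 and pandas 2.3.3, genes with a mean of at least 10 were kept (10587 of 10598), 10 was added, the log2 was taken and single libraries were subtracted. Genes were counted at 2-fold, or, where MNU changes were subtracted between genotypes, at 2 on the log2 scale. Folds are ratios of normalised counts, and are not given where a value was under 3.5. Named genes were the listed symbols, the 5 nearest profiles to each among genes reaching 100, the 8 largest changes per direction with MNU in knockout, of which the decreases are not described, and up to 5 genes per list. A few list genes beyond these were chosen after their values were seen, as were the genes under other observations. The members and 18 lists were chosen with earlier results of these data known. Promoter windows were matched by symbol on GRCm38.p6, another build than mm9. The alternatives tried are named in the closing section.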

Additional observations from a re-analysis of the deposited data

Results flagged for a closer look

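In 4 of the 5 genes the MNU difference had opposite directions in the 2 genotypes, lower in the wild-type library and higher in the knockout library, each by at least 2-fold. Of all 10587 genes kept, 0.151% met both conditions. The 5 genes were chosen for levels following neither genotype nor MNU alone, so nothing is read from the count. The difference of the changes, knockout minus wild type on the log2 scale, was 10.80 for Pth, 8.76 for Chga, 9.68 for Bpifa1 and 4.68 for Eps8l1. With 1 library per group the difference was not tested.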

How the results depend on the processing

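The alternatives were pseudocounts of 2.5 and 40, no filter, a mean of at least 100, median-of-ratios and upper-quartile scaling, a 4-fold threshold, removal of the wild-type MNU share, and replacement of the vehicle knockout library. Of 210 member differences under them, 199 were labelled the same, 5 weaker, 2 stronger and 4 reversed. The same means an unchanged call, passing or not, at the threshold of each setting. A change of sign was labelled reversed only for a difference that had passed its threshold in the results above. Scaling moved the median of all genes by at most 0.03. With MNU knockout in place of vehicle knockout, the genotype difference turned positive for Pth (1.61), Chga (1.87), Bpifa1 (3.74), Glycam1 (4.69) and Eps8l1 (0.24). All but Eps8l1 were at least 2-fold higher, so 4 members were higher and 0 lower. These follow from the library used. No member was higher with MNU in wild type (0) at a pseudocount of 40 or at 4-fold, and at 4-fold 2 were lower in vehicle knockout. The shares of all genes at these settings are not given here, so nothing is read from these counts. At 4-fold with MNU in wild type, 5 lymph node genes and 1 thymocyte gene were lower, and 0 medullary and 0 B cell genes were higher. At 4-fold with MNU in knockout, 1 airway gene was higher and 0 lower, 0 lymph node and 0 squamous genes and 1 adipocyte gene were lower, and 0 B cell genes were higher. With the share removed, Glycam1 was also 2-fold lower in vehicle knockout, at 0.41 against 10.9 normalised counts in vehicle wild type. In that setting 0 lymph node and 4 squamous genes were lower and 0 B cell genes higher with MNU in knockout. For the share the cause was not tested; a 4-fold threshold counts fewer by construction. With a pseudocount of 40, 3 of the 5 genes nearest to Eps8l1 were shared. No paired analysis was possible because each group had 1 library, and no replicate could be left out. Levels under about 10 units rest on few reads.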

Other observations

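Of the 16 genes that were at least 2-fold lower with MNU in wild type and at least 2-fold higher in knockout, 12 were not among the 5 described, and some were not typical of parathyroid, airway or neuroendocrine cells. They are named here after their values were seen. Igfbp5, a secreted binding protein of insulin-like growth factors, stood at 6456 and 337 normalised counts in wild type with vehicle and with MNU and at 7036 and 14568 in knockout with vehicle and with MNU. Slc15a2, a peptide transporter, stood at 300.4, 15.7, 2213 and 4827 in the same order, so that both knockout libraries were above both wild-type libraries. Pglyrp1, a peptidoglycan recognition protein of neutrophils, stood at 142, 31.5, 163 and 365. Clec1b, a platelet and myeloid receptor, stood at 194, 25.0, 189 and 411. In these 4 genes vehicle knockout was not below vehicle wild type by more than 2-fold, unlike Pth, Chga, Bpifa1 and Eps8l1.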
